A study of Homo sapiens with 10 samples.

Results

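The Crumbs, Par and Scribble complexes are the 3 protein assemblies that give an epithelial cell its apical and basolateral sides. Their genes were followed here through a mesenchymal prostate cancer line that was returned towards the epithelial state by the transcription factors OVOL1 or OVOL2. The members were chosen by name, and a row of the deposited tables counted when its gene symbol was CRB3, INADL, MPP5, PARD3, PARD6A, PARD6B, PRKCI, LLGL1, LLGL2 or SCRIB. All 10 genes were found, each with 1 row among 23170 gene rows, and 25 of 37557 isoform rows carried one of these names.

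PC3 is a cell line from a human prostate carcinoma, and 4 lines made from it gave the 10 RNA-seq samples. PC3-Epi (2 samples) is a luciferase-marked epithelial subpopulation that was picked by its colony morphology and its light signal. PC3-EMT14 (3 samples) is a mesenchymal population that was isolated by its changed morphology after PC3-Epi cells were grown with macrophages and passaged. PC3-EMT14-OVOL1 (3 samples) is PC3-EMT14 transduced with a lentivirus that carries OVOL1, and PC3-EMT14-OVOL2 (2 samples) is PC3-EMT14 transduced with a lentivirus that carries OVOL2 in a vector with a V5 tag. All 4 lines therefore descend from the luciferase-marked cells, the 3 EMT14 lines descend from 1 isolated population, the control of the OVOL lines was PC3-EMT14 itself, and the vector promoter was not given in the sources used here.

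Each table compares a pair of lines and holds 1 FPKM value per line and gene (fragments scaled to transcript length and library size), which the authors' software combined from the samples of that line. The values below are these pooled values, with no SD, no interval and no test, and the depth of each sample is unknown. A gene is called 2-fold higher or lower here when the ratio of its FPKM values reached 2 with at least 1 FPKM in the higher line and a value above 0 in both. The comparisons against PC3-EMT14 share the same PC3-EMT14 samples, so their values are set side by side and are not repeats of each other. The tables were normalized separately, and the PC3-EMT14 value of a member differed between its 3 tables by 1.03-fold at most. In them the names of the EMT14 lines end in II_trim, while PC3-Epi is named pc3 without this ending. What the ending stands for was not given in the sources used here, and its part in the PC3-Epi ratios was not tested.

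In an epithelial cell, the Crumbs complex joins the small membrane protein CRB3 to the scaffolds PALS1 (gene MPP5) and PATJ (gene INADL) at the apical side, next to the tight junction. The Par complex holds the scaffold PAR3 (gene PARD3), the adaptor PAR6 (genes PARD6A and PARD6B) and an atypical protein kinase C (gene PRKCI), and it is activated by the small GTPase CDC42. The Scribble complex (SCRIB, the DLG scaffolds and the LGL proteins of LLGL1 and LLGL2) marks the basolateral side, and the kinase of the Par complex keeps LGL away from the apical side by phosphorylating it. Loss of this arrangement is a textbook feature of the epithelial to mesenchymal transition, and ZEB1 is known to repress several of these genes in other carcinoma cells.

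The transduced genes followed the labels. OVOL1 had 0.0238 FPKM in PC3-EMT14 against 11.3 FPKM in PC3-EMT14-OVOL1, and OVOL2 had 0.370 FPKM against 831 FPKM in PC3-EMT14-OVOL2. PC3-Epi held 4.25 FPKM of OVOL1 and 9.91 FPKM of OVOL2 without a transgene. The summed FPKM of 4 epithelial markers (CDH1, EPCAM, KRT8 and KRT18) was 229 in PC3-EMT14, 388 in PC3-EMT14-OVOL1, 649 in PC3-EMT14-OVOL2 and 922 in PC3-Epi. That of 4 mesenchymal markers (VIM, ZEB1, CDH2 and FN1) was 333, 219, 105 and 87.7 in the same order of lines. VIM was the largest part of each sum, at 271, 183, 76.9 and 42.5 FPKM. FN1 was at 36.8, 18.4, 16.5 and 33.8 FPKM, so PC3-Epi stood near PC3-EMT14 at this gene. CDH2 was at 18.0, 13.3, 10.1 and 11.3 FPKM, lowest in the OVOL2 line. Of the prostate markers, HOXB13 was at 22.2 FPKM or more in every line, and KLK3 was listed at 0 in all 4 lines. Of 8 macrophage markers, 7 were below 1 FPKM in every line and summed to at most 0.279 FPKM. The other, CD68, which many cell types express, stood between 51.2 and 57.8 FPKM in the 3 EMT14 lines and at 13.2 FPKM in PC3-Epi.

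Within the 10 genes, 3 separated the mesenchymal line from the others. CRB3, INADL and LLGL2 were lowest in PC3-EMT14, higher with OVOL1 and higher again with OVOL2, and PC3-Epi stood at or near the OVOL2 level. The 4 Par genes differed by 1.41-fold at most between any pair of lines within a table. SCRIB was past 2-fold in PC3-Epi as a gene row, but most of that excess lay in a microRNA entry within the row, as set out below. The plot of levels by line shows the 10 genes together.

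**Figure D1:**
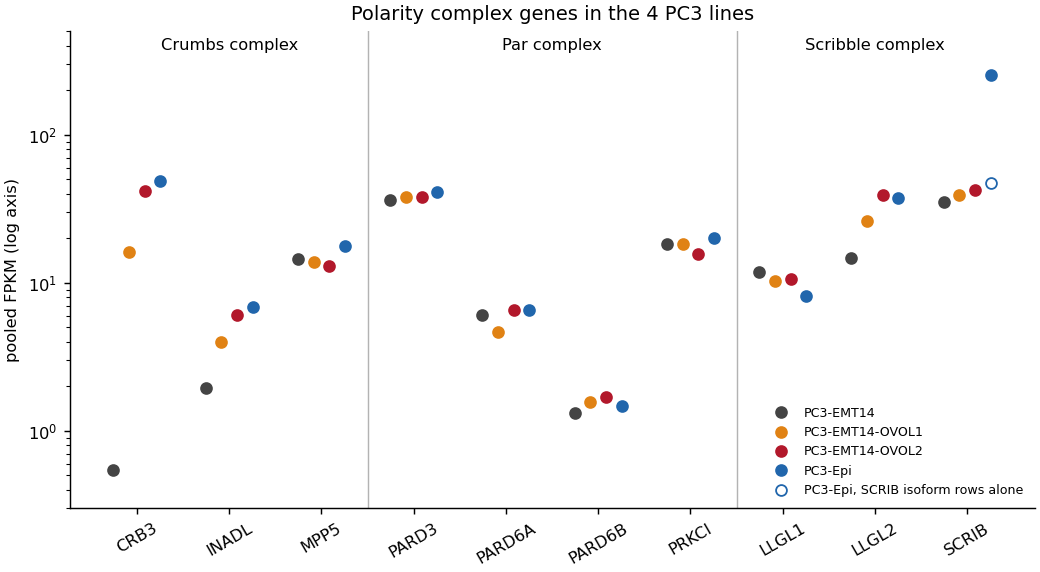
Pooled FPKM (log axis) of the 10 genes in each line, grouped by complex; PC3-EMT14 and PC3-Epi are taken from their shared table and each OVOL line from its table against PC3-EMT14, and no error bar is shown because each point is 1 pooled value. CRB3 spans 0.542 to 49.1 FPKM, while the 4 Par genes stay close together within each gene; the open point is SCRIB in PC3-Epi from its own isoform rows, at 47.4 FPKM.

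The sequence next to the start of CRB3 is shown because this gene carried the largest ratios of the 10 and because its 250 bases before the start hold the E-box CAGGTG or its reverse complement CACCTG 5 times. This E-box is the core bound by ZEB1 and by SNAI1 and SNAI2. Each line gives 30 bases, 5′ to 3′ on the plus strand, with the E-box in capitals, taken from the RefSeq promoter table of GRCh38 and matched base for base to hg19.
CRB3 at -228, chr19:6464042-6464071: atgctcgcaatgCAGGTGtaaggtccccct
CRB3 at -208, chr19:6464062-6464091: aggtccccctcaCACCTGcgcgcttccgcg
CRB3 at -147, chr19:6464123-6464152: ggggtcccgttaCAGGTGcgcccacagcgc
CRB3 at -89, chr19:6464181-6464210: ctcagcgaggctCAGGTGcacaagccggaa
CRB3 at -60, chr19:6464210-6464239: agtgcgctctccCAGGTGagtgactaaact
INADL at -171, chr1:62207969-62207998: ccggtaggaattCACCTGcacgtaaacagc
INADL at -30, chr1:62208110-62208139: gggagggcctgcCAGGTGaggcgcggtcac

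Positions are those of the first base of the E-box before the RefSeq start of the gene. The 5 CRB3 sites lie before the start of the deposited CRB3 locus, within the 5′ UTR of a longer CRB3 transcript in the GENCODE annotation of hg19 and within an intron of SLC25A23. The first INADL site lies in an exon of the non-coding PATJ-DT, and the other lies in no annotated gene. Of 35116 promoter entries in the table, 17.5% held at least 1 such E-box in the same 250 bases, 2.53% at least 2 and 0.074% at least 5. The letters CCGTTA, a core bound by OVO-type zinc fingers, stood at -153 of CRB3, directly before its E-box at -147, and this motif or its reverse complement was in 2.45% of entries. The longer OVOL2 consensus given by the authors also allows other letters in this core, which were not searched. The bases around the CRB3 match differ from that consensus. Of the 6 members matched among the promoter entries, MPP5, PARD6A, PRKCI and LLGL1 held neither the E-box nor CCGTTA in these 250 bases, and INADL held no CCGTTA. PARD3, PARD6B, LLGL2 and SCRIB had no entry. These are matches of letters, and no binding was measured in the files used here.

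With OVOL1, 2 of the 10 genes were at least 2-fold higher than in PC3-EMT14 (CRB3 and INADL) and 0 were at least 2-fold lower. Over the 12111 genes with at least 1 FPKM and above 0 in both lines, 2.06% were 2-fold higher and 1.23% were 2-fold lower. The median log2 ratio of the 10 was 0.14, beside -0.0018 over all genes. With OVOL2, 3 of the 10 were 2-fold higher (CRB3, INADL and LLGL2) and 0 were lower, beside 4.16% higher and 2.58% lower among 12226 genes. Their median log2 ratio was 0.24, beside -0.04 over all genes. In PC3-Epi, 4 of the 10 were 2-fold higher (CRB3, INADL, LLGL2 and the SCRIB gene row), or 3 with SCRIB taken from its own isoform rows, and 0 were lower. The background there was wider, with 7.09% higher and 7.96% lower among 12344 genes, and the median log2 ratio of the 10 was 0.23, beside -0.01 over all genes. PC3-EMT14-OVOL2 against PC3-EMT14-OVOL1 gave 1 gene of the 10 that was 2-fold higher (CRB3) and 0 lower, beside 1.68% higher and 0.801% lower among 12113 genes.

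**Figure D2:**
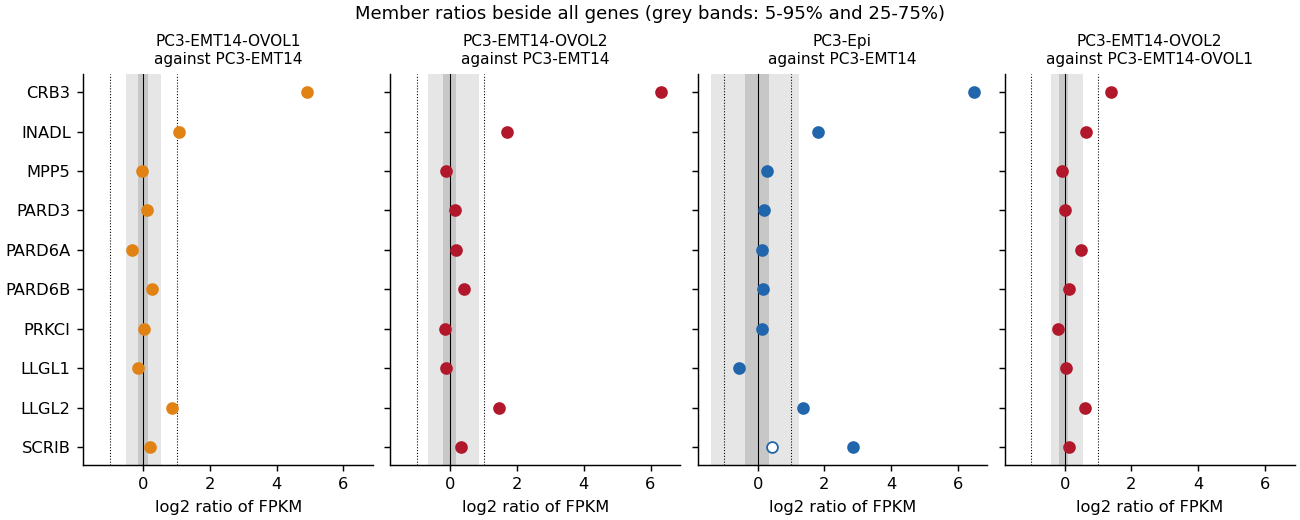
Log2 ratio of pooled FPKM (x axis) of each of the 10 genes in the 4 comparisons, with dotted lines at 2-fold. Grey bands give the central 90% and 50% of all genes with at least 1 FPKM and above 0 in both lines. CRB3, INADL and LLGL2 lie above the wider band in all 4 panels, with CRB3 furthest out at 4.92, 6.30, 6.50 and 1.39. The open point is SCRIB in PC3-Epi from its own isoform rows, at 0.43.

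CRB3, the transmembrane protein of the Crumbs complex (deposited locus chr19:6464260-6481798, which also covers most of its neighbour DENND1C), had the widest range. PC3-EMT14 held 0.531 FPKM of it and PC3-EMT14-OVOL1 held 16.0 FPKM, a ratio of 30.2 and the 19th highest log2 ratio of 12111 genes. In the OVOL2 table it went from 0.525 to 41.5 FPKM, a ratio of 79.0 and the 10th highest of 12226. PC3-Epi had 49.1 FPKM against 0.542 FPKM in PC3-EMT14, a ratio of 90.5 that ranked 45th of 12344. These ranks leave out 86, 81 and 97 genes of at least 1 FPKM that were listed at 0 in 1 line and have no ratio. Only PC3-EMT14 was below 1 FPKM, so each ratio rests on a low value, and with 1 FPKM added to both values the log2 ratios of 4.92, 6.30 and 6.50 became 3.48, 4.80 and 5.02. In these bulk samples, fewer cells with a transcript and less of it per cell cannot be told apart.

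The 2 OVOL lines differed most at CRB3 among the 10 genes. In their own table it stood at 15.9 FPKM with OVOL1 and 41.5 FPKM with OVOL2, a ratio of 2.62 and a log2 ratio of 1.39. The factors themselves were at unequal levels, with OVOL1 at 11.3 FPKM and OVOL2 at 831 FPKM in their lines, and the part of that difference in the result was not tested.

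DENND1C, a gene on the opposite strand whose annotated end shares 15 bases with that of CRB3, moved with it. Its FPKM was 0.0929 in PC3-EMT14, 1.30 in the OVOL1 line, 3.99 in the OVOL2 line and 3.69 in PC3-Epi. Whether fragments were counted by strand was not given in the sources used here, so fragments from the shared bases cannot be assigned, and their part in the CRB3 values was not tested. In PC3-EMT14-OVOL2, CRB3 had 41.5 FPKM and DENND1C had 3.99 FPKM.

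INADL encodes PATJ, the scaffold with many PDZ domains that links PALS1 to the tight junction (deposited locus chr1:62208149-62629591). Its FPKM was 1.91 in PC3-EMT14 and 3.98 with OVOL1, a ratio of 2.08 just past the 2-fold line. With OVOL2 the pair was 1.89 and 6.08 FPKM, a ratio of 3.21. PC3-Epi had 6.92 FPKM against 1.95 FPKM, a ratio of 3.55. INADL thus followed the same order of lines as CRB3 over a narrower range and at a lower level per length outside PC3-EMT14. Between the OVOL lines it was at 3.93 and 6.07 FPKM, a ratio of 1.54 that did not reach 2-fold.

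MPP5 encodes PALS1, which joins CRB3 to PATJ, and it did not follow its partners. Its FPKM was 14.3 in PC3-EMT14, 13.9 in the OVOL1 line, 13.0 in the OVOL2 line and 17.8 in PC3-Epi. The largest of its 4 ratios was 1.22, in PC3-Epi. Within PC3-EMT14 the level of CRB3 was 0.0372 times that of MPP5, and the OVOL1 line had it at 1.15 times, the OVOL2 line at 3.19 times and PC3-Epi at 2.76 times that level.

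LLGL2 encodes a Lethal giant larvae protein of the basolateral side (deposited locus chr17:73521783-73571290). It had 14.3 FPKM in PC3-EMT14 and 26.0 FPKM with OVOL1, a ratio of 1.81 that fell short of 2-fold. With OVOL2 it was at 39.3 FPKM against 14.2 FPKM, a ratio of 2.77. PC3-Epi had 37.4 FPKM against 14.7 FPKM, a ratio of 2.55, and the OVOL2 line was the one with the highest level. Unlike CRB3, LLGL2 was well expressed in PC3-EMT14, so its ratios do not rest on a low value. Between the OVOL lines its ratio was 1.53, from 25.7 to 39.3 FPKM.

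LLGL1, the paralog of LLGL2, stood the other way in PC3-Epi. Its FPKM was 11.6 in PC3-EMT14, 10.3 with OVOL1 and 10.6 with OVOL2, and it was 8.13 in PC3-Epi against 11.9 in PC3-EMT14, a log2 ratio of -0.55. None of these reached 2-fold, and LLGL1 was the only one of the 10 with a log2 ratio below 0 in PC3-Epi. The level of LLGL2 relative to LLGL1 was 1.24 in PC3-EMT14, 2.51 in the OVOL1 line, 3.72 in the OVOL2 line and 4.61 in PC3-Epi.

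The isoform rows show which transcripts of CRB3 and LLGL2 carried these levels. The 2 CRB3 rows, TCONS_00016190 and TCONS_00016191, were at 0.320 and 0.211 FPKM in PC3-EMT14. With OVOL1 they were at 4.61 and 11.4 FPKM, with OVOL2 at 15.9 and 25.6 FPKM, and in PC3-Epi at 13.0 and 36.1 FPKM. TCONS_00016191 held 39.7% of the CRB3 level in PC3-EMT14, where the gene row was only 0.531 FPKM, and 71.3% in the OVOL1 line, 61.6% in the OVOL2 line and 73.6% in PC3-Epi. The order of the pair was therefore reversed in the mesenchymal line, at a level too low for its share to be read closely without replicates.

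LLGL2 had 3 isoform rows, and they did not move as one. TCONS_00014304, the most abundant, had 6.93 FPKM in PC3-EMT14 and 14.8 FPKM with OVOL1, a ratio of 2.14. TCONS_00014303 went from 5.07 to 8.83 FPKM in the same table, a ratio of 1.74. TCONS_00014305 was at 2.36 and 2.31 FPKM in these lines, so the OVOL1 difference lay in the other rows. In PC3-EMT14-OVOL2 and PC3-Epi all 3 rows were at least 2-fold above PC3-EMT14, and TCONS_00014305 reached 5.72 and 8.31 FPKM. Between the OVOL lines this row had the largest LLGL2 ratio, 2.50, from 2.29 to 5.72 FPKM. The deposited rows give only the locus of the gene, and the exons that distinguish these transcripts were not analysed here.

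**Figure D3:**
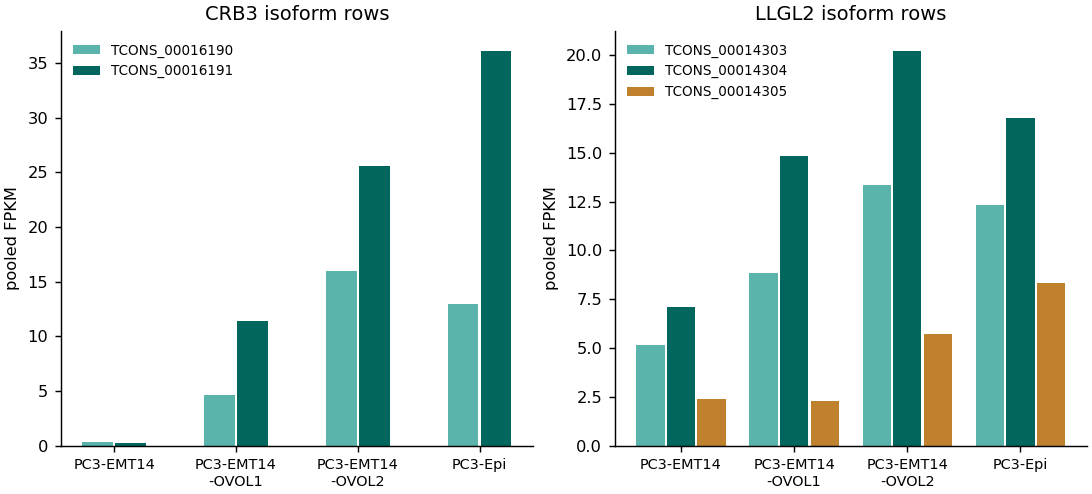
Pooled FPKM (bars from 0) of the isoform rows of CRB3 and LLGL2 in the 4 lines, 1 value per bar and no error bar. Both CRB3 rows are near 0 in PC3-EMT14, and TCONS_00014305 of LLGL2 is as low with OVOL1 (2.31 FPKM) as in PC3-EMT14.

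Across all members, 19 of the 25 isoform rows reached 1 FPKM in a comparison, and for 5 members (INADL, MPP5, PARD6B, PRKCI and LLGL1) the isoform row is the gene row. With OVOL1, 4 of them were 2-fold higher (both CRB3 rows, INADL and TCONS_00014304 of LLGL2) and 0 lower, beside 2.74% higher and 2.16% lower among all isoforms. With OVOL2, 6 were higher and 0 lower, beside 5.16% and 4.03%. In PC3-Epi, 6 were higher and 0 lower, beside 8.64% and 9.43%. Between the OVOL lines, 3 were higher with OVOL2 (both CRB3 rows and TCONS_00014305) and 0 lower, beside 2.59% and 2.01%. Every row called in these comparisons belonged to CRB3, INADL or LLGL2.

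The SCRIB gene row, for the scaffold that names the basolateral complex, needs its isoform rows to be read. As deposited, SCRIB on chromosome 8 had 34.4 FPKM in PC3-EMT14, 39.3 FPKM in the OVOL1 line and 42.3 FPKM in the OVOL2 line. PC3-Epi had 254 FPKM against 35.2 FPKM in its table, a ratio of 7.21. The gene row is the sum of 3 isoform rows, of which 2 are named SCRIB and 1 is named MIR937, a microRNA entry of 86 bases on the same strand that overlaps annotated SCRIB exons. In PC3-Epi the MIR937 row held 206 FPKM, or 81.3% of the gene row, and it was listed at 0 in the other 3 lines. The 2 SCRIB rows summed to 47.4 FPKM in PC3-Epi and 35.2 FPKM in PC3-EMT14, a ratio of 1.35, which did not reach 2-fold. The ratios from the SCRIB rows alone with OVOL1 and OVOL2 were 1.14 and 1.24, the same as from the gene row.

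**Figure D4:**
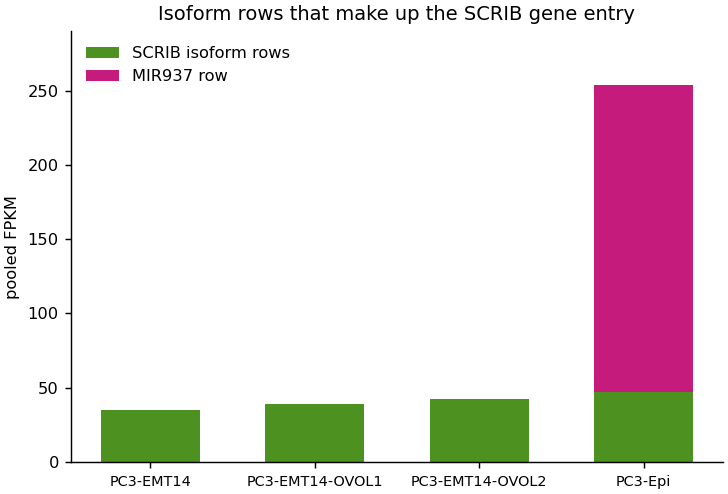
Stacked bars (from 0) of pooled FPKM in the isoform rows that make up the SCRIB gene entry, by line. The rows named SCRIB give 35.2 to 47.4 FPKM in the 4 lines, and the MIR937 row adds 206 FPKM in PC3-Epi.

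FPKM divides by transcript length, and the number of fragments behind the value of this short entry is unknown. Between the SCRIB rows themselves, TCONS_00034466 had 26.8 FPKM in PC3-EMT14 against 41.8 FPKM in PC3-Epi, and TCONS_00034467 had 8.43 against 5.57 FPKM.

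The Par complex was the flattest of the 3. PARD3, the scaffold of the complex, was at 35.3 FPKM in PC3-EMT14, 37.7 FPKM with OVOL1, 38.0 FPKM with OVOL2 and 40.7 FPKM in PC3-Epi, and it was the most abundant Par gene per length in all lines. Of its 11 isoform rows, 5 were listed at 0 in every line, and TCONS_00004566 held between 54.1% and 56.2% of the level in each. The other 5, TCONS_00004559, TCONS_00004563, TCONS_00004564, TCONS_00004565 and TCONS_00004568, stood between 2.37 and 5.91 FPKM in all lines and tables. PRKCI, the atypical protein kinase C, was at 17.8 FPKM in PC3-EMT14, 18.2 FPKM with OVOL1, 15.6 FPKM with OVOL2 and 20.1 FPKM in PC3-Epi. Both genes thus differed from PC3-EMT14 by 1.13-fold at most.

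The PAR6 adaptors were low but present. PARD6A had 5.89 FPKM in PC3-EMT14, 6.50 FPKM in the OVOL2 line and 6.59 FPKM in PC3-Epi. The OVOL1 line, at 4.66 FPKM, was the only one below PC3-EMT14. The OVOL2 line was 1.41-fold above the OVOL1 line at this gene. PARD6B stood between 1.28 and 1.69 FPKM in all lines and tables. The main PARD6A row, TCONS_00012655, stood between 4.43 and 6.59 FPKM in all lines and tables. The minor row, TCONS_00012656, had 0.625 FPKM in PC3-EMT14, 0.180 FPKM in the OVOL1 line and 0.710 FPKM in the OVOL2 line and was listed at 0 in PC3-Epi, all below the level of 1 FPKM used for calls.

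The wider polarity machinery was read from 31 genes in lists of paralogs, DLG scaffolds, kinases and partners. With OVOL1, 0 of the 25 that reached 1 FPKM were 2-fold higher or lower, and AMOTL1, a junction protein that binds PATJ and its relatives, came nearest at 4.88 and 9.45 FPKM. The shares over all genes there were 2.06% higher and 1.23% lower. With OVOL2, 1 of 25 was 2-fold higher, again AMOTL1, at 4.83 and 10.6 FPKM, and 0 were lower, beside 4.16% higher and 2.58% lower over all genes. In PC3-Epi, 4 of 26 were higher and 2 were lower, and 20 were within 2-fold, beside 7.09% higher and 7.96% lower over all genes. Between the OVOL lines, 0 of 25 differed by 2-fold, beside 1.68% higher and 0.801% lower. The medians of the log2 ratios were 0.04, -0.03, 0.05 and 0.04 in this order of comparisons, beside all-gene medians between -0.04 and -0.0018.

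The genes past 2-fold in PC3-Epi included paralogs that stood in opposite directions. PARD3B, a paralog of PARD3, had 0.334 FPKM in PC3-EMT14 against 1.24 FPKM in PC3-Epi, while PARD6G, the remaining PAR6 gene, went from 4.01 to 1.57 FPKM. MPDZ, the paralog of INADL, went from 2.54 to 1.14 FPKM between these lines, the opposite direction to INADL. Higher in PC3-Epi were LRRC1, a relative of SCRIB (3.41 and 8.89 FPKM), WWC1, the KIBRA protein that binds atypical protein kinase C (3.64 and 10.4 FPKM), and AMOTL1 (4.98 and 13.6 FPKM). With OVOL2 the MPDZ, PARD6G, LRRC1 and WWC1 log2 ratios were -0.60, -0.03, 0.45 and 0.89, none past 2-fold.

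**Figure D5:**
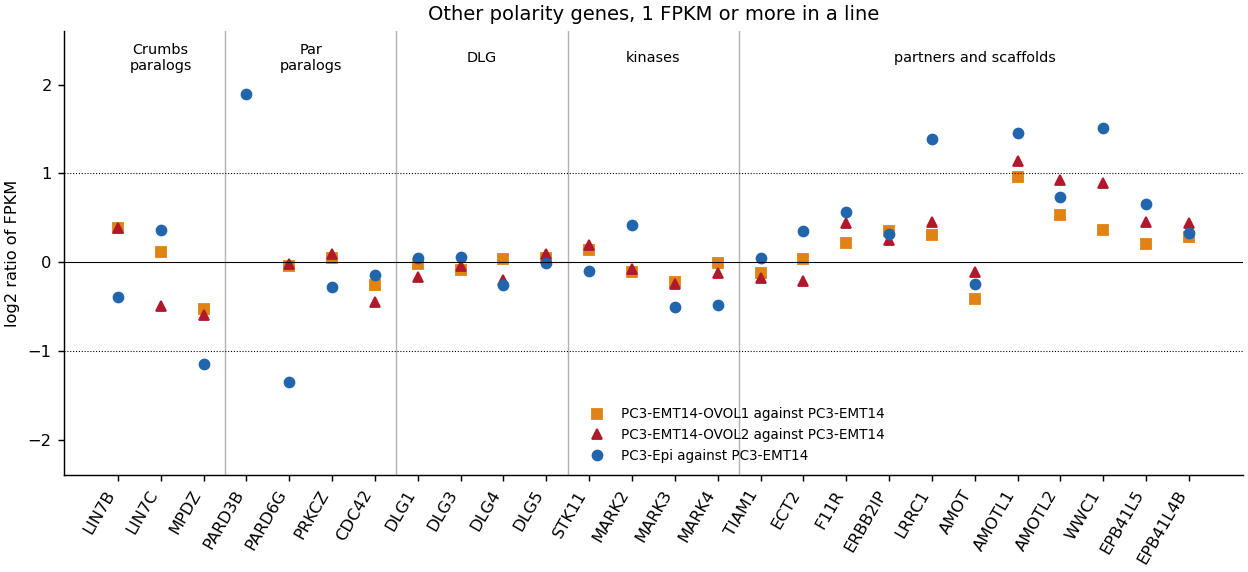
Log2 ratio of pooled FPKM against PC3-EMT14 (y axis) of the listed polarity genes with at least 1 FPKM in a line, by list, with dotted lines at 2-fold and no point where a gene stayed below 1 FPKM in that table. The 6 PC3-Epi points and 1 PC3-EMT14-OVOL2 point past the dotted lines are the listed genes called 2-fold.

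All 4 DLG scaffolds that reached 1 FPKM (DLG1, DLG3, DLG4 and DLG5) stayed within 2-fold in the 4 comparisons, with DLG1 between 16.3 and 19.5 FPKM. So did the kinases STK11, MARK2, MARK3 and MARK4 and the second atypical protein kinase C, PRKCZ, which had 22.4 FPKM in PC3-EMT14 against 18.4 FPKM in PC3-Epi. CDC42 was at 87.3 FPKM in PC3-EMT14, 71.3 FPKM with OVOL1, 62.1 FPKM with OVOL2 and 79.0 FPKM in PC3-Epi. CRB1 and CRB2, the paralogs of CRB3, were at most 0.00629 FPKM in every line, so CRB3 was the only Crumbs gene of the 3 to reach 1 FPKM.

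Genes of the ZEB and SNAI families, which bind the E-box shown above, were not all lower where CRB3 was higher. ZEB1 had 7.43 FPKM in PC3-EMT14 and 4.25 FPKM with OVOL1, a log2 ratio of -0.81. With OVOL2 it was at 1.77 FPKM, and in PC3-Epi at 0.130 FPKM. SNAI2 was at 3.96 FPKM in PC3-EMT14, 1.47 FPKM with OVOL1, 1.80 FPKM with OVOL2 and 1.35 FPKM in PC3-Epi. SNAI1 was at 1.32 FPKM in PC3-EMT14 and higher elsewhere, at 2.67, 2.65 and 2.46 FPKM in the same order. ZEB2 was at 0.145 FPKM or less in every line. The part of these factors in the polarity gene levels was not tested.

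The genes nearest to each member were found by the Euclidean distance of the 3 log2 ratios against PC3-EMT14, over 12453 genes, as a description of likeness across 4 lines. For CRB3 they were BSPRY, EPS8L1 and ATP2C2, at distances of 0.64, 0.94 and 1.07. For INADL they were SH2D3A, RAB17 and GRHL1, at 0.17, 0.19 and 0.21, and for LLGL2 they were TMC6, SPINT1 and IRS2, at 0.036, 0.053 and 0.092. Those of the SCRIB gene row, CXXC5, PRR5L and GUCY1A3 at 0.26, 0.29 and 0.44, are nearest to a row whose PC3-Epi value is mostly the MIR937 entry.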

How the data were processed

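Paired-end RNA-seq reads were aligned by the authors with TopHat against the hg19 transcriptome from UCSC, and pairs of lines were compared with Cuffdiff, with upper-quartile normalization to compatible hits and with corrections for sequence bias and for reads that map to several places. The authors deposited FPKM values, 1 per line, gene or isoform and table, combined over the samples of the line. Their log2 fold changes, test statistics, p-values and q-values in the same tables were not used. Ratios were computed from the FPKM values in Python 3.11.15 with numpy 2.4.6 and pandas 2.3.3 without a pseudocount, for features with at least 1 FPKM in a line and above 0 in both, and 2-fold was the threshold. Features at 0 in 1 line have no ratio. The counting was tested on simulated data. Members and lists were chosen with earlier results of these data known. Named were all members and their isoform rows of at least 1 FPKM, listed polarity genes past 2-fold in a comparison, 6 regulators, and the 3 nearest genes of each member past 2-fold against PC3-EMT14; other genes were added after their values were seen. Positions are the deposited hg19 loci with starts counted from 1. Of the fixed marker lists, 1 gene is not reported here.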

Additional observations from a re-analysis of the deposited data

Results flagged for a closer look

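The MIR937 row of the SCRIB gene entry lies outside the rows named for a member, and it held 206.346 FPKM in PC3-Epi and was listed at 0 in PC3-EMT14 and both OVOL lines. It is singled out because it is a signal in a row that the member isoform counts do not use, above the level in the control line. It makes up most of the SCRIB gene row in PC3-Epi, which the gene comparisons do use. No replicate value is given for it. Whether its fragments came from the microRNA or from the overlapping SCRIB exons was not tested.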

How the results depend on the processing

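The member counts were recomputed with pseudocounts of 0.1 and 1 FPKM, with the all-gene median subtracted, with no floor or a floor of 5 FPKM, and with thresholds of 1.5-fold and 4-fold, and the member medians under all of these but the thresholds. The isoform counts were recomputed with a pseudocount of 0.1 FPKM, with no floor and with both thresholds, and the isoform medians and the counts and medians of the 31 listed genes were not recomputed. No member ratio past 2-fold changed sign under the pseudocounts or the subtraction. With OVOL1 the count of 2 genes became 1 with a pseudocount of 1 FPKM, with a floor of 5 FPKM and at 4-fold, since INADL is low and near the line. At 4-fold the counts were 1 with OVOL2, 2 in PC3-Epi (CRB3 and the SCRIB gene row) and 0 between the OVOL lines, and the isoform counts were 2, 2, 2 and 0 in the order of the comparisons. At 1.5-fold, 3 genes and 5 isoforms differed between the OVOL lines. Under the settings run for each, the other member and isoform counts stayed within 1.5 times and the member medians within 0.1 of the reported values. That margin is wide beside medians of this size. With a floor of 5 FPKM the median was 0.066 in place of 0.14 with OVOL1 and 0.16 in place of 0.24 with OVOL2. In PC3-Epi it was 0.28 in place of 0.23. With SCRIB taken from its own isoform rows, chosen after seeing the data, the PC3-Epi count was 3 and the SCRIB log2 ratio 0.43 in place of 2.85. No paired analysis was possible because each line has 1 pooled value per table, which also leaves no replicate to leave out. Without replicates or depth, no ratio here has an error, and low levels such as CRB3 in PC3-EMT14 are the least certain.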

Other observations

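The OVOL2 line and PC3-Epi had like levels of CRB3, INADL and LLGL2. These genes were at 41.5, 6.08 and 39.3 FPKM with OVOL2 and at 49.1, 6.92 and 37.4 FPKM in PC3-Epi. ZEB1 was at 1.77 and 0.130 FPKM in these lines, and its part in the levels was not tested. The paralogs PARD3B, PARD6G and MPDZ stood further apart. They were at 0.620, 3.82 and 1.63 FPKM with OVOL2 and at 1.24, 1.57 and 1.14 FPKM in PC3-Epi. PARD3B was below 1 FPKM with OVOL2 and MPDZ was near that level in both lines, so their differences are uncertain. DLG2, a DLG scaffold better known from neurons, was below 1 FPKM throughout, with 0.717 FPKM for PC3-EMT14, 0.800 FPKM for PC3-EMT14-OVOL2 and 0.0414 FPKM for PC3-Epi. PC3-EMT14-OVOL2 and PC3-Epi were not compared in a table of their own, so their values are side by side only.

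The SCRIB entry was not alone in holding a microRNA row. Of 64 gene entries with both a microRNA row and other rows, the microRNA row was above 0 in 6 in PC3-Epi and 7 in PC3-EMT14. It made up most of the summed FPKM, at a sum of at least 1 FPKM, in 6 entries in PC3-Epi, 5 in PC3-EMT14, 3 in PC3-EMT14-OVOL1 and 2 in PC3-EMT14-OVOL2.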
